A study of Homo sapiens with 26 samples.

Results

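MYC, its binding partner MAX and the MAX-binding antagonists were examined as 9 genes (MYC, MYCN, MYCL, MAX, MXD1, MXI1, MXD3, MNT and MGA) of the 17687 genes named on the arrays. The members were chosen by gene symbol. Each was measured by 1 probe set, so all 9 members of the list are described. The study profiled 26 single-colour arrays of 3 human lung cancer cell lines and asked how they respond to Omomyc, a small dominant-negative variant of the MYC leucine zipper region. H1975 (NCI-H1975, labelled lung adenocarcinoma) had 4 arrays of cells given phosphate-buffered saline (PBS), the vehicle, and 5 of cells given Omomyc. A549 (labelled lung carcinoma) had 4 and 3, and H1299 (NCI-H1299, labelled lung carcinoma) had 5 and 5. Cells were left overnight after plating before Omomyc was added at 12.8 µM. For how long they were exposed was not stated in the sources used here. All groups shared the same medium with serum, and PBS was the only control. An effect of Omomyc and an effect of any added protein can therefore not be told apart. The labels call the arrays of a group biological replicas of an established line without naming separate cultures, so the p-values rest on the spread among these arrays, and that spread may be technical.

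MYC proteins carry a basic helix-loop-helix leucine zipper with which they pair with MAX, and the pair binds E-box sequences and activates transcription. MAX has no activation domain, and it also pairs with MXD1, MXI1 (also called MXD2), MXD3 and MNT, which recruit the SIN3 corepressor to the same sites. MGA, the largest member of the network, pairs with MAX too and is the scaffold of a Polycomb complex, PRC1.6. Omomyc competes with MYC for MAX and for DNA. Transcript levels of the members describe the RNA of these activating and repressing partners, not the amounts of protein.

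Values are log2 array values. A change is a log2 fold change, the Omomyc mean minus the PBS mean of a line, followed by its standard error from limma (after ±), and adjusted p is the Benjamini-Hochberg value over all 17687 genes. A member is called when adjusted p is under 0.05. The arrays fell into 3 sets by the distribution of their values, 9, 10 and 7 arrays, called runs here. No label names these sets. Each group had arrays in all 3 runs, apart from Omomyc-treated A549 cells, which were missing from run 3. A group held at most 2 arrays in a run, so the PBS mean of a run can be 1 array. Background probe sets had mean values between 2.35 and 6.69, which bounds how far dim genes can be read. The keratin genes KRT8 and KRT18 were at 12.38 or higher in every array, and the NRF2 target AKR1B10, high in KEAP1-mutant A549 cells, averaged 17.10 ± 0.22 (SD, n = 4) with PBS in A549, against 3.75 ± 0.27 (n = 4) for H1975 and 3.00 ± 0.41 (n = 5) for H1299. The epithelial genes EPCAM, KRT19 and CDH1 were below the brightest background probe set in H1299, as was CDH1 in H1975. The blood cell and endothelial markers PTPRC, CD3E, CD79A, PECAM1 and CDH5 did not exceed 5.58 in any array. The fibroblast genes COL1A1 and COL1A2 were at 9.44 ± 1.14 and 8.055 ± 0.80 (n = 4) in H1975 PBS arrays, above the brightest background probe set. The third fibroblast gene, DCN, did not exceed 5.10 in any array. The number of arrays limits the precision. In bulk RNA, fewer cells with a transcript and less of it per cell cannot be told apart.

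With Omomyc the MYC transcript rose in H1975 and fell in H1299, and it was not called in A549. MAX fell in H1975 and H1299. MXI1 rose in both of these lines, whereas MXD1 rose in H1975 and fell in H1299. MNT rose in H1975. In H1975 5 of the 9 members were called, 4 higher and 1 lower, where 11.8% of all genes were called (5.57% higher, 6.28% lower). In H1299 4 of 9 were called, 1 higher and 3 lower, against 8.87% of all genes (4.35% higher, 4.52% lower). In A549 0 of 9 were called by limma, against 1.19% of all genes (0.916% higher, 0.277% lower), and 3 members (MAX, MXD1 and MNT) had an unadjusted p under 0.05. With the run as a block 2 members were called in A549, MAX and MXD1. Over all genes 303 were then called higher and 199 lower in A549, in place of 162 and 49. With each array centred on its median, 60.2% of the genes called in H1975 were higher in place of 47.0%, and in A549 the share of 76.8% became 66.2% after quantile normalization and 60.4% with the run as a block. The median change of all genes was 0.0038 in H1975, 0.042 in A549 and 0.0018 in H1299.

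**Figure D1:**
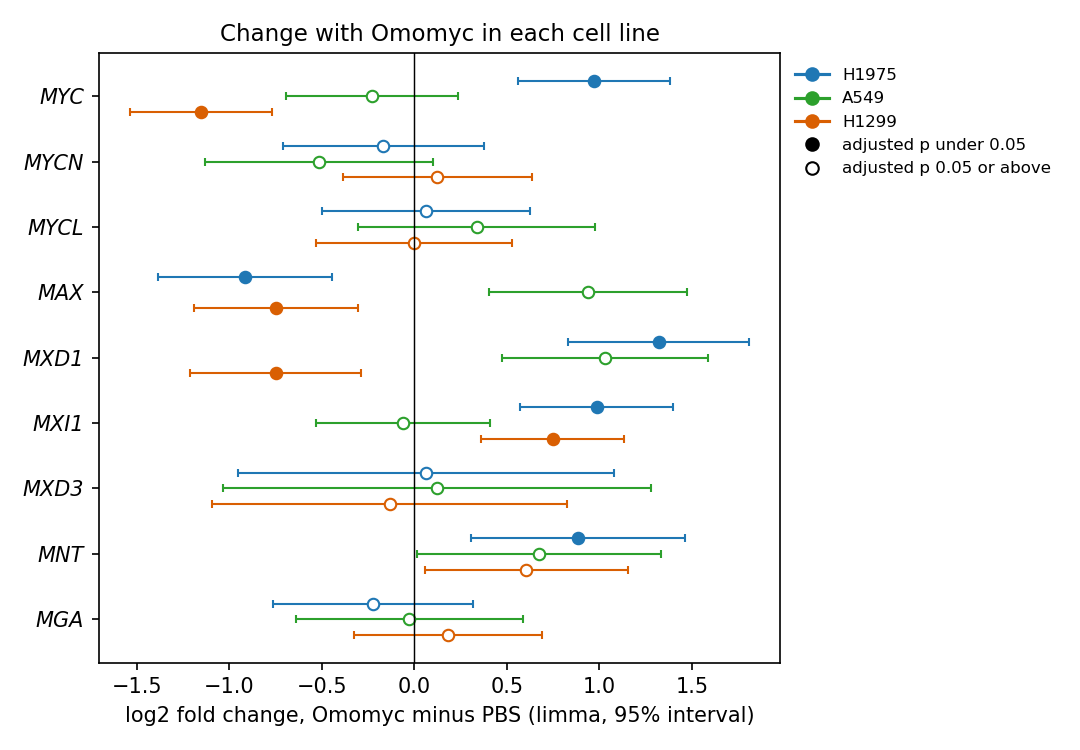
Change of each member with Omomyc (x axis: log2 fold change, Omomyc minus PBS, from limma) in H1975, A549 and H1299, with 95% intervals; filled points have an adjusted p under 0.05. MYC lies at 0.97 in H1975 and at -1.15 in H1299, MAX is below 0 in both of these lines and at 0.94 in A549, and MXI1 is above 0 in H1975 and H1299.

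MYC, the activating member measured well above background in all 3 lines, moved in opposite directions in H1975 and H1299. In H1975 it stood at 13.93, 13.68, 13.41 and 13.69 in PBS replicates 1 to 4 and at 14.98, 14.94, 14.36, 14.26 and 14.70 in Omomyc replicates 1 to 5. All Omomyc arrays were above all PBS arrays, as were 5.18% of all genes in this line. The mean went from 13.68 ± 0.21 (SD, n = 4) to 14.65 ± 0.33 (n = 5), a change of 0.97 ± 0.20 (adjusted p = 0.00119), or 1.96-fold. Against the PBS mean of its own run, MYC was higher in 5 of 5 Omomyc arrays, by 0.71 to 1.06.

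In H1299 MYC stood at 13.35, 13.20, 13.16, 12.96 and 13.07 in PBS replicates 1 to 5 and at 12.10, 11.89, 11.96, 12.05 and 11.97 in Omomyc replicates 1 to 5. The groups did not overlap, and every Omomyc array was lower, which held for 4.09% of all genes there. The mean fell from 13.15 ± 0.15 (n = 5) to 11.99 ± 0.083 (n = 5), a change of -1.15 ± 0.19 (adjusted p = 0.000135), or 2.22-fold lower. The difference within the run was between -1.29 and -0.97 in 5 of 5 arrays. MYC and MXD1 were among 62 genes, 0.351% of all, that were called higher in H1975 and lower in H1299, lines that share no arrays.

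In A549 MYC stood at 12.24, 12.43, 13.19 and 12.23 in PBS replicates 1 to 4 and at 12.31, 12.13 and 12.44 in Omomyc replicates 1 to 3. The groups overlapped, and PBS replicate 3 was apart from the other PBS arrays. Chosen after their values were seen, the immediate early genes FOS and EGR1 stood apart in that array too, FOS at 13.84 and EGR1 at 15.82, whereas the other PBS arrays lay between 5.43 and 6.69 for FOS and between 4.93 and 5.62 for EGR1. The change of MYC was -0.23 ± 0.23 (adjusted p = 0.915, 95% interval -0.70 to 0.24), and -0.0071 (adjusted p = 0.996) without PBS replicate 3.

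MYCN and MYCL, the other MYC family members, were dim. Their group means lay between 2.48 and 3.00 for MYCN and between 3.08 and 3.62 for MYCL, under the brightest background probe set in every group. Neither was called in any line, with changes of MYCN between -0.51 and 0.12 and of MYCL between -0.0016 and 0.34. At these values a fold change cannot be read, so of the MYC family the data bear on MYC.

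**Figure D2:**
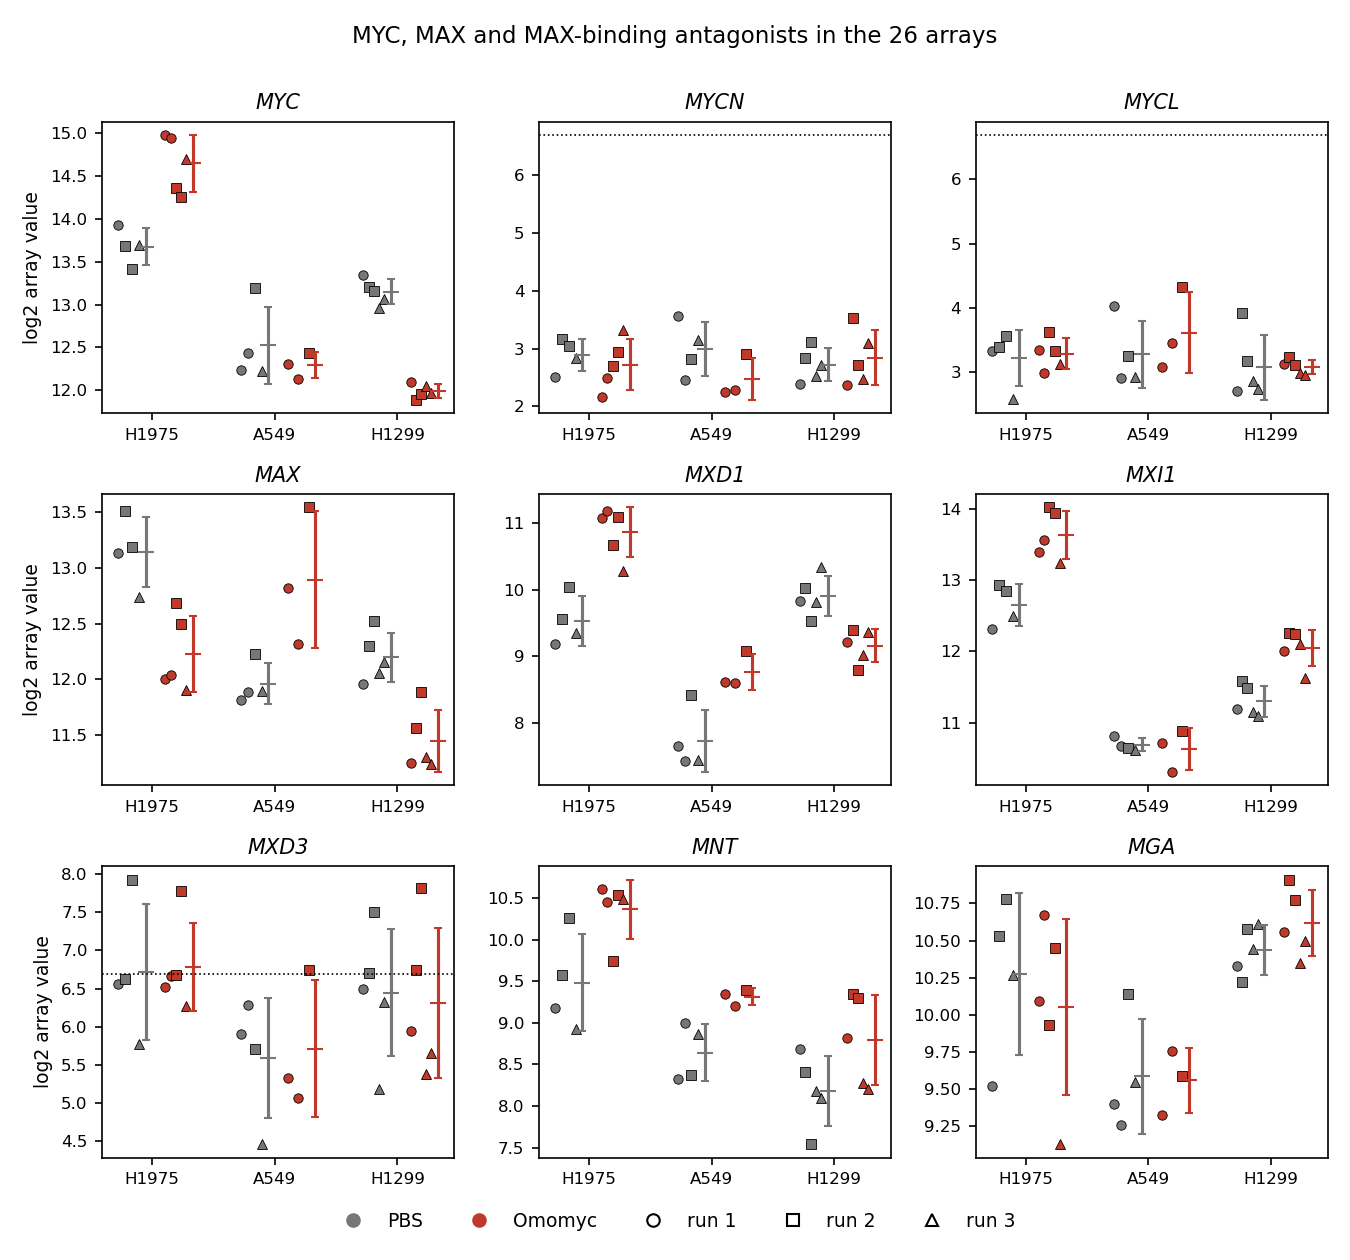
Log2 array value of each member (y axis) in every array by cell line, PBS in grey and Omomyc in red, with the run as marker shape and the mean ± SD beside each group; the dotted line is the brightest background probe set (6.69), drawn where members come near or under it. MYC arrays of H1975 rise from at most 13.93 with PBS to at least 14.26 with Omomyc, those of H1299 fall from at least 12.96 to at most 12.10, and MYCN and MYCL stay under the dotted line.

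MAX, the shared partner, fell in H1975 and H1299, while its A549 arrays were higher. In H1975 it stood at 13.13, 13.51, 13.18 and 12.74 with PBS and at 12.00, 12.04, 12.68, 12.50 and 11.91 with Omomyc. The groups did not overlap, and 5.35% of all genes were lower without overlap in this line. The change was -0.92 ± 0.23 (adjusted p = 0.00691), or 1.89-fold lower. In H1299 the PBS arrays were at 11.96, 12.30, 12.52, 12.06 and 12.16 and the Omomyc arrays at 11.25, 11.57, 11.89, 11.31 and 11.24. Every Omomyc array of this line was below every PBS array, and the change was -0.75 ± 0.22 (adjusted p = 0.0255). In the H1299 comparison the MAX call was lost without PBS replicate 2 or 3 or Omomyc replicate 1, 4 or 5, with changes of -0.67 to -0.72 and adjusted p of 0.0547 to 0.0743.

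In A549 MAX stood at 11.82, 11.89, 12.23 and 11.90 with PBS and at 12.82, 12.32 and 13.54 with Omomyc. All 3 Omomyc arrays were above all PBS arrays, as were 5.79% of genes in this line (3.60% were lower without overlap), and they differed among themselves by more than the PBS arrays did. The change was 0.94 ± 0.26 and did not pass the threshold (adjusted p = 0.0804), whereas it did when the run was a block (0.90, adjusted p = 0.00383). It passed as well without Omomyc replicate 2 (1.22, adjusted p = 0.0245), and without Omomyc replicate 3, the highest array, it was 0.62 (adjusted p = 0.537). Within the run all 3 arrays were higher, by 0.47 to 1.31.

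Among the antagonists, MXD1, a gene known to be induced as cells stop dividing and differentiate, rose in H1975 and fell in H1299. In H1975 it stood at 9.18, 9.56, 10.04 and 9.35 with PBS and at 11.07, 11.17, 10.67, 11.09 and 10.28 with Omomyc, and no array overlapped. The change of 1.32 ± 0.24 (adjusted p = 0.000287) was the largest of the members in this line, 2.50-fold. In A549 it stood at 7.65, 7.43, 8.42 and 7.44 with PBS and at 8.62, 8.60 and 9.08 with Omomyc, all 3 above the PBS arrays. The A549 change was 1.03 ± 0.27 (adjusted p = 0.0589), which passed when the run was a block (1.01, adjusted p = 0.0286) and without PBS replicate 3 (1.26, adjusted p = 0.0123).

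In H1299 MXD1 went the other way. Its PBS arrays were at 9.83, 10.02, 9.53, 9.81 and 10.34 and its Omomyc arrays at 9.21, 9.40, 8.80, 9.02 and 9.36, with no overlap. The change was -0.75 ± 0.23 (adjusted p = 0.0327), 1.68-fold lower. The H1299 call of MXD1 was lost without PBS replicate 1, 2 or 5 or Omomyc replicate 1, 3 or 4, with changes of -0.64 to -0.77 and adjusted p of 0.0503 to 0.107. It was also lost with each array centred on its median (-0.71, adjusted p = 0.054).

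MXI1, a repressor of the same family, rose in H1975 and H1299. In H1975 it stood at 12.31, 12.93, 12.85 and 12.50 with PBS and at 13.39, 13.56, 14.02, 13.94 and 13.24 with Omomyc, a change of 0.99 ± 0.20 (adjusted p = 0.00108). In H1299 it stood at 11.19, 11.58, 11.49, 11.15 and 11.09 with PBS and at 12.01, 12.26, 12.24, 12.11 and 11.63 with Omomyc, a change of 0.75 ± 0.19 (adjusted p = 0.00986). The groups did not overlap in either line (3.91% of all genes were higher without overlap in H1299), and the difference within the run was above 0 in 5 of 5 arrays of both lines. MXI1 was among 221 genes, 1.25% of all, called higher in both H1975 and H1299, and MAX among 199, or 1.13%, called lower in both.

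In A549 MXI1 stood at 10.82, 10.68, 10.65 and 10.62 with PBS and at 10.71, 10.31 and 10.88 with Omomyc. The groups overlapped, and the change was -0.061 ± 0.23 (adjusted p = 0.99, 95% interval -0.53 to 0.41).

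MXD3, the antagonist associated with S phase, was near the background bound. Its group means lay between 5.59 and 6.78, and only H1975 had means above 6.69. It was not called in any line, and the standard errors of 0.47 to 0.56 were the largest of the members in each line. The changes were 0.062, 0.12 and -0.13 in H1975, A549 and H1299. Its highest array in each group of H1975 and H1299, between 7.50 and 7.93, lay in run 2.

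MNT, an antagonist described as broadly expressed in proliferating and resting cells, rose in H1975 and had positive changes in the other lines that were not called. In H1975 it stood at 9.18, 9.57, 10.26 and 8.92 with PBS and at 10.61, 10.45, 9.74, 10.54 and 10.49 with Omomyc. PBS replicate 3 and Omomyc replicate 3 overlapped. The change was 0.88 ± 0.28 (adjusted p = 0.0382). That MNT call was lost without PBS replicate 1, 2 or 4 or Omomyc replicate 1, 2, 4 or 5, with changes of 0.70 to 0.91 and adjusted p of 0.0681 to 0.163. Within run 2, which held both overlapping arrays, the change was 0.23, against 1.35 in run 1 and 1.57 in run 3. Run 1 held 1 PBS array of H1975, and run 3 held 1 PBS and 1 Omomyc array of it.

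In A549 MNT stood at 8.32, 9.0, 8.37 and 8.87 with PBS and at 9.35, 9.20 and 9.39 with Omomyc, without overlap. The change was 0.68 ± 0.32 (adjusted p = 0.548). In H1299 MNT stood at 8.68, 8.41, 7.54, 8.18 and 8.10 with PBS and at 8.82, 9.34, 9.30, 8.28 and 8.20 with Omomyc. These groups overlapped, with a change of 0.61 ± 0.27 (adjusted p = 0.192). The H1299 change was 1.34 in run 2 and 0.14 and 0.10 in runs 1 and 3, and run 1 held 1 PBS and 1 Omomyc array of H1299.

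MGA was not called in any line. Its changes were -0.22 ± 0.26 in H1975 (95% interval -0.76 to 0.32), -0.027 ± 0.30 in A549 (-0.64 to 0.59) and 0.18 ± 0.25 in H1299 (-0.33 to 0.69). PBS and Omomyc arrays overlapped in all 3 lines, from 9.13 to 10.78 in H1975, from 9.26 to 10.14 in A549 and from 10.22 to 10.91 in H1299.

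Because MNT and MGA pair with MAX at E-boxes, the starts of the members' own genes were searched for this sequence. RefSeq promoter windows (GRCh38.p14) matched 8 of the 9 members with 13 start sites, and MYC was not matched. In the 250 bases before each start, CACGTG, which reads the same on both strands, was found in 1 member promoter, that of MNT, and in 6.34% of all 35116 promoters searched the same way. The variant CACGCG, searched on both strands, was found in 1 promoter, of MGA, and in 9.72% of all. They are shown because they are the matches among the members, with the matched bases in capitals and on the strand of the gene. The MNT stretch is chr17:2401221-2401280 (minus strand), its match starting 193 bases before the start, and the MGA stretch is chr15:41660357-41660404 (plus strand), its match, the reverse complement of the variant, starting 21 bases before the start. A match is a description and not a bound site, and no match says only that these letters are not in the window.
MNT: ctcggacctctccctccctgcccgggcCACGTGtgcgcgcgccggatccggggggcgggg
MGA: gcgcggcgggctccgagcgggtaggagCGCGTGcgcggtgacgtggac

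The responses were then compared between lines, since a call in 1 line and none in another does not show a difference. In the moderated F test of limma the response differed between the 3 lines for 3 of 9 members, where 8.18% of all genes were called. They were MYC (adjusted p = 2.07e-05), MXD1 (adjusted p = 0.000135) and MAX (adjusted p = 0.000944). MXI1 was at adjusted p = 0.0614, and it was called with the replicate block (adjusted p = 0.0333) and when the run was a block (adjusted p = 0.0027). It was also called after quantile normalization (0.00634), with median centring (0.0108), with trend and robust settings (0.0455) and with array weights (0.0264). It was not called with the 30th percentile filter (0.052) or means of probe sets (0.0613). With 1 array left out its adjusted p was 0.0391 to 0.214. MNT (adjusted p = 0.936), MXD3, MGA, MYCN and MYCL did not pass. For MNT the 95% intervals of the pairwise differences reached from -0.67 to 1.09 for H1975 minus A549, from -0.52 to 1.08 for H1975 minus H1299 and from -0.79 to 0.93 for A549 minus H1299.

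By pairs of lines, the response of MYC was higher in H1975 than in H1299 by 2.12 ± 0.27 (adjusted p = 5.85e-06) and than in A549 by 1.20 ± 0.30 (adjusted p = 0.0173). The latter call was lost without Omomyc replicate 2 of A549 (1.12, adjusted p = 0.0597). Between A549 and H1299 the MYC difference of 0.92 ± 0.30 did not pass (adjusted p = 0.103), and it did without PBS replicate 3 of A549 (1.15, adjusted p = 0.0233). The MAX response was lower in H1975 than in A549, a difference of -1.85 ± 0.35 (adjusted p = 0.00135), and higher in A549 than in H1299 by 1.69 ± 0.34 (adjusted p = 0.00491). H1975 and H1299 were not shown to differ in MAX (-0.17, 95% interval -0.81 to 0.48). The MXD1 response was higher in H1975 than in H1299 by 2.07 ± 0.33 (adjusted p = 0.000111) and in A549 than in H1299 by 1.78 ± 0.35 (adjusted p = 0.00432). H1975 and A549 were not shown to differ in MXD1 (0.29, 95% interval -0.45 to 1.03). The MXI1 response was higher in H1975 than in A549 by 1.05 ± 0.30 (adjusted p = 0.0438), a call that was lost without any 1 of 11 arrays, PBS replicate 1 or 4 or Omomyc replicate 2, 3 or 4 of H1975, any PBS array of A549 and Omomyc replicate 1 or 2 of A549 (0.88 to 1.09, adjusted p 0.0581 to 0.151). The shares of all genes called in these 3 pairs were 4.62% for H1975 minus A549 (1.92% higher, 2.70% lower), 5.70% for H1975 minus H1299 (2.61% higher, 3.09% lower) and 2.47% for A549 minus H1299 (1.40% higher, 1.07% lower). Of the members, 3 were called in the first pair, 2 in the second and 2 in the last.

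**Figure D3:**
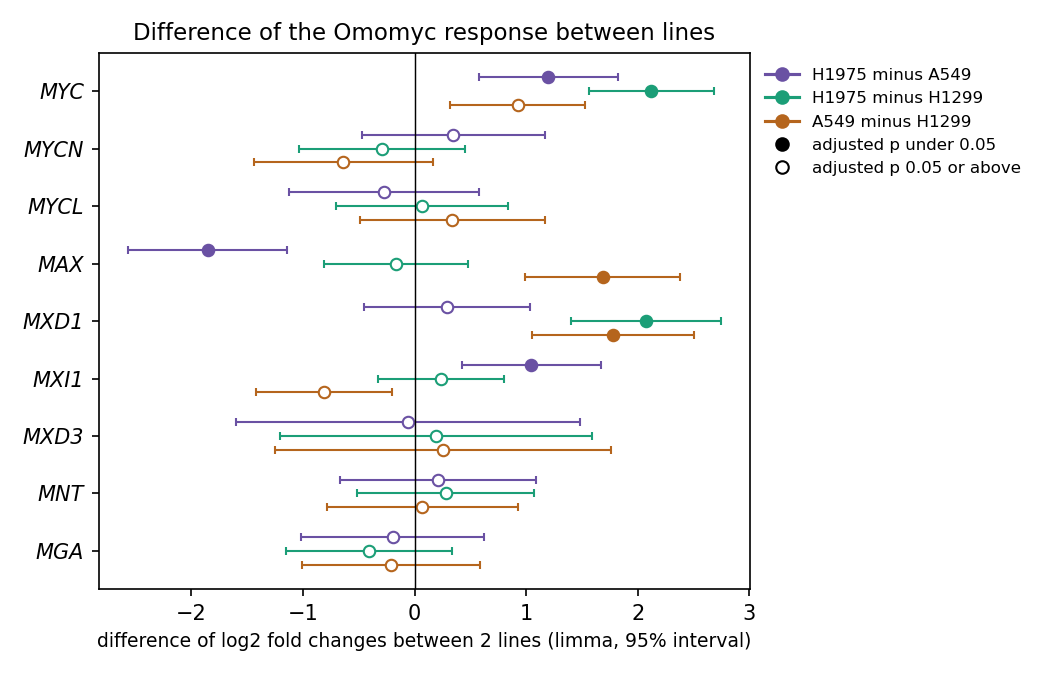
Difference of the Omomyc response between pairs of lines (x axis: difference of log2 fold changes from limma, with 95% intervals) for each member; filled points have an adjusted p under 0.05. The largest differences are those of MYC (2.12) and MXD1 (2.07) between H1975 and H1299, and MAX separates A549 from both other lines.

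The level of several members in PBS-treated cells differed between lines before any Omomyc, as did that of many other genes. Of the 9 members 6 were called between H1975 and A549, all higher in H1975, where 38.3% of all genes were called (20.3% higher, 18.0% lower). Between H1975 and H1299 4 were called, all higher in H1975, against 42.0% of genes (21.2% higher, 20.8% lower), and between A549 and H1299 4, all lower in A549, against 41.5% (19.0% higher, 22.5% lower). In both comparisons with H1299 the members were called about as often as all genes. These comparisons and the Omomyc changes share the PBS arrays.

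PBS levels of MYC ran from H1975 (13.68 ± 0.21, n = 4) over H1299 (13.15 ± 0.15, n = 5) to A549 (12.52 ± 0.45, n = 4). The step from H1975 to A549 was 1.16 ± 0.21 (adjusted p = 4.47e-05), and it was 1.06 to 1.38 when 1 array was left out, still called. The calls of the neighbouring steps were lost when some single arrays were left out. H1975 exceeded H1299 by 0.53 ± 0.20 (adjusted p = 0.0327), a call lost after quantile normalization of all arrays (0.45, adjusted p = 0.0652), with each array centred on its median (0.37, adjusted p = 0.267) and without PBS replicate 1, 2 or 4 of H1975 or 4 or 5 of H1299 (0.45 to 0.53, adjusted p 0.0591 to 0.109). A549 was below H1299 by -0.63 ± 0.20 (adjusted p = 0.0119), a call lost without PBS replicate 1 or 4 of A549 (-0.53 in both cases, adjusted p = 0.0546 and 0.0545). In run 2, whose only A549 PBS array was replicate 3, A549 and H1299 differed in MYC by 0.00845. The step from H1975 to A549 was also smaller in run 2, at 0.36. The H1975 PBS arrays were at 13.68 and 13.41 there, and the A549 array was at 13.19.

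MAX in PBS arrays was highest in H1975 (13.14 ± 0.32), above H1299 (12.20 ± 0.22) by 0.94 ± 0.23 (adjusted p = 0.00114), and H1299 and A549 (11.96 ± 0.18) were not shown to differ (A549 minus H1299 -0.24, 95% interval -0.71 to 0.23). MXD1 was highest in H1299 (9.91 ± 0.30) and next in H1975 (9.53 ± 0.37), and their difference did not pass (H1975 minus H1299 -0.38, 95% interval -0.87 to 0.11). In A549 it was lower (7.74 ± 0.47), with differences of 1.80 ± 0.25 from H1975 (adjusted p = 8.62e-07) and -2.17 ± 0.24 from H1299 (adjusted p = 9.9e-09). MXI1 differed at each step, from H1975 (12.65 ± 0.29) to H1299 (11.30 ± 0.22) by 1.35 ± 0.20 (adjusted p = 2.04e-06) and from A549 (10.70 ± 0.089) to H1299 by -0.60 ± 0.20 (adjusted p = 0.0155).

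MNT in PBS arrays was highest in H1975 (9.48 ± 0.58) and exceeded H1299 (8.18 ± 0.43) by 1.30 ± 0.28 (adjusted p = 0.000352). Its excess over A549 (8.64 ± 0.35) was 0.84 ± 0.30 (adjusted p = 0.025), a call lost without PBS replicate 2 or 3 of H1975 or 1 or 3 of A549 (0.58 to 0.81, adjusted p 0.0551 to 0.143) and with each array centred on its median (0.71, adjusted p = 0.0629). A549 and H1299 were not shown to differ in MNT (0.46, 95% interval -0.12 to 1.04). MGA was higher in H1299 (10.43 ± 0.16) than in A549 (9.58 ± 0.39), a difference of -0.85 ± 0.26 for A549 minus H1299 (adjusted p = 0.00944). H1975 (10.28 ± 0.55) and H1299 were not shown to differ in MGA (-0.16, 95% interval -0.70 to 0.38). H1975 exceeded A549 by 0.69 ± 0.28 (adjusted p = 0.0497), which was lost without PBS replicate 2, 3 or 4 of H1975 or 1, 2 or 4 of A549 (0.52 to 0.69, adjusted p 0.0778 to 0.185). MXD3 was not called between lines (5.59 to 6.72), though with the run as a block it was lower in A549 than in H1975 and H1299 (adjusted p = 0.0212 and 0.0272), and without PBS replicate 4 of H1975 the difference between H1975 and A549 passed (1.45, adjusted p = 0.0395), whereas it was 0.73 without PBS replicate 3 of H1975 (adjusted p = 0.341).

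The balance of MYC against each antagonist was followed as the MYC value minus the antagonist's value within an array, set relative to the PBS mean of the line. Values of different probe sets are not levels of different genes on 1 scale, so changes of this difference are given and no ratio of levels. No test was made, since the members were chosen with results known. The share of other gene pairs whose difference does not overlap was not computed. MXD3 lay near or under the brightest background probe set, so the shift against it cannot be read in any line. Its values were 0.91 in H1975 (0.42 to 1.26 when 1 array was left out), -0.35 in A549 (-0.61 to 0.089) and -1.02 in H1299 (-1.28 to -0.63). In H1299 the MYC value was lower relative to MXI1, MNT, MGA and MXD1. The mean shift was -1.90 against MXI1, -1.76 against MNT, -1.34 against MGA and -0.40 against MXD1. All 5 Omomyc arrays were below the PBS mean for each of these 4 antagonists. PBS and Omomyc arrays did not overlap for MXI1, MNT and MGA. MYC is part of each difference and alone changed by -1.15 in H1299 without overlap, so these shifts are not separate results. MGA itself changed by 0.18 there, which was not called.

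In H1975 MXD1, MXI1 and MNT were called higher along with MYC. The difference moved by -0.015 against MXI1, 0.086 against MNT and -0.35 against MXD1, with overlapping arrays. When 1 array was left out these shifts ran from -0.17 to 0.18, from -0.26 to 0.28 and from -0.61 (without PBS replicate 3) to -0.15 (without PBS replicate 1). Against MGA, which was not called, it was above the PBS mean of the line in 5 of 5 arrays. The shift was 0.41 to 2.17 with a mean of 1.19, although PBS and Omomyc arrays overlapped. In runs 1, 2 and 3 alone the shift against MGA was 0.18, 1.23 and 2.15. In run 1 Omomyc replicate 2 was at 0.88, below the PBS array of that run at 1.01. MYC alone changed by 0.97 in H1975, so most of the mean shift against MGA is the MYC change itself. In A549 the shift was -1.26 against MXD1, with 3 of 3 arrays between -1.43 and -1.10, and -0.91 against MNT, with 3 of 3 arrays between -0.95 and -0.83, and neither overlapped. Of single genes, 9.39% did not overlap in this line. MYC alone changed by -0.23, MXD1 by 1.03 and MNT by 0.68 in A549, none of them called. Most of each shift is thus the change of the antagonist itself, so these shifts are not separate results. The shift against MNT was -0.59 without PBS replicate 3. It was -0.17 against MXI1 and -0.20 against MGA, with overlap, and 0.069 against MXI1 without PBS replicate 3 and -0.020 against MGA without Omomyc replicate 2. Relative to MAX the MYC value differed by 1.89 in H1975, -1.17 in A549 and -0.41 in H1299. In the A549 arrays of run 2 alone, where PBS replicate 3 was the PBS array, the shift against MNT was -1.77 and against MXI1 -0.98.

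**Figure D4:**
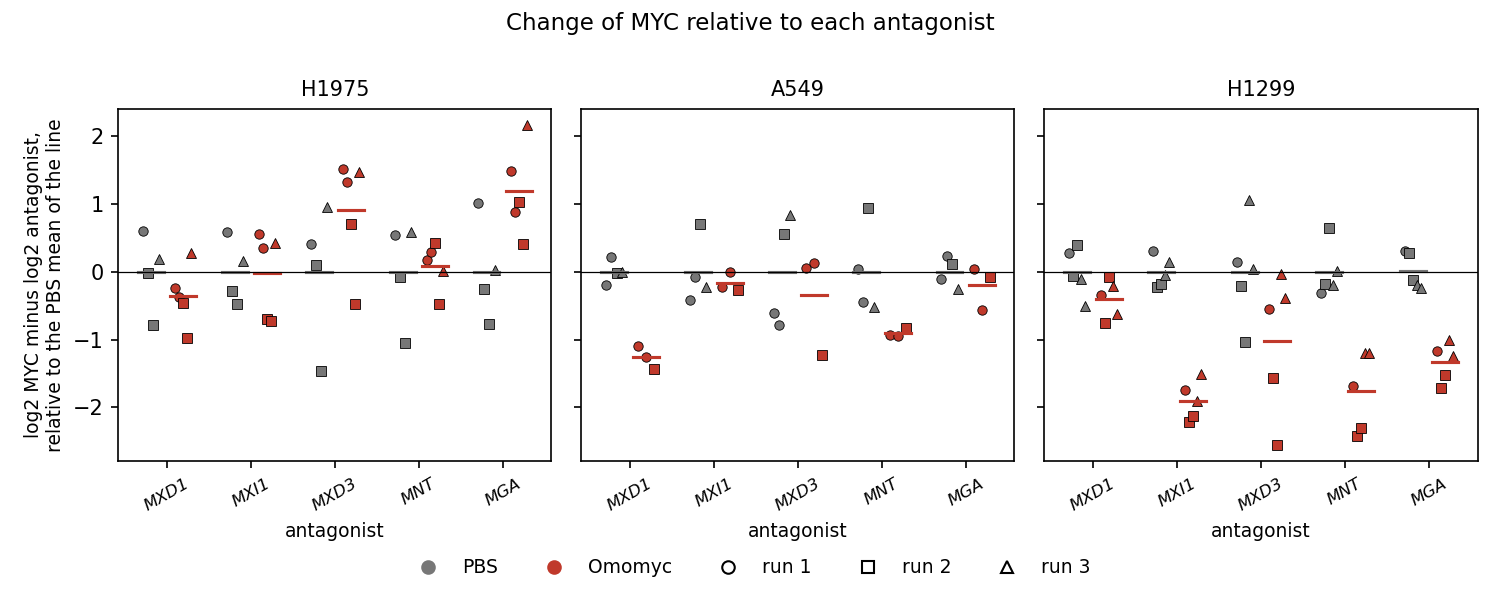
MYC value minus antagonist value in every array, relative to the PBS mean of the line (y axis, log2), for each antagonist (x axis) in H1975, A549 and H1299; grey PBS, red Omomyc, bars for group means and marker shape for the run. In H1299 all Omomyc arrays lie under 0 for MXD1, MXI1, MNT and MGA, while the MXD3 points rest on values near background and cannot be read. In A549 the largest mean shift is against MXD1 (-1.26), where neither MYC nor MXD1 was called. In H1975 the mean shift is near 0 for MXI1 and MNT and above 0 for MGA.

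The other genes of the network were taken from 8 lists holding 117 genes, of which 100 were measured. In H1975 8 of the 100 were higher and 11 lower, in A549 0 and 1, and in H1299 4 and 10. Over all genes, 5.57% were called higher and 6.28% lower in H1975, 0.916% and 0.277% in A549, and 4.35% and 4.52% in H1299. The counts of each list below stand beside these shares. At an unadjusted p under 0.05 the counts were 32, 7 and 31 of 100, against 22.3%, 8.72% and 19.4% of all genes. The lists are described by counts and medians only.

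Of the remaining network factors 5 of 6 were measured (MXD4 was not analysed here). MLX, which pairs with MXD and Mondo proteins in place of MAX, rose in H1299 by 0.78 ± 0.23 (adjusted p = 0.0276), a call lost without PBS replicate 1, 4 or 5 or Omomyc replicate 2, 3 or 4 (0.68 to 0.77, adjusted p 0.0563 to 0.0897). It changed by 0.26 in H1975 and 0.099 in A549, neither called. MLXIP and MLXIPL, the glucose-responsive Mondo factors, were called in no line (changes of -0.50 to 0.48 and -0.51 to 0.040).

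In H1975, where 6.28% of all genes were called lower, cofactors of MYC had a median change of -0.39. Of 14 cofactors 3 were lower and 0 higher. These were the remodeller subunit gene BPTF (-1.03 ± 0.25, adjusted p = 0.00521), HCFC1 (-0.93 ± 0.21, adjusted p = 0.00262) and TRRAP (-0.78 ± 0.20, adjusted p = 0.00965), the adaptor of MYC-bound acetyltransferases, which was named after its value was seen. The TRRAP call was lost with each array centred on its median (-0.67, adjusted p = 0.0656) and with run and replicate block together (-0.68, adjusted p = 0.164). In H1299 1 of 14 was lower, the ATPase gene RUVBL1 (-1.54 ± 0.27, adjusted p = 0.000325), with a list median of -0.26, and in A549 0 of 14 were called (0 at an unadjusted p under 0.05), with a median of -0.25. Of the enzymes that control MYC protein stability, SKP2, a ubiquitin ligase subunit that acts on MYC, fell in H1975 by 1.62 on the log2 scale (adjusted p = 1.14e-05) and in H1299 by 0.78 on that scale (adjusted p = 0.0196). The H1299 call of SKP2 was lost without PBS replicate 3 or Omomyc replicate 1, 2 or 5 (-0.70 to -0.73, adjusted p 0.0503 to 0.0639). USP7 changed by -0.80 ± 0.23 in H1975 (adjusted p = 0.0226), and the phosphatase subunit gene PPP2R5A by 0.97 ± 0.24 in H1299 (adjusted p = 0.00667). No others of the 16 were called in these lines, and 0 of 16 in A549 (0 at an unadjusted p under 0.05). With 11.8% of all genes called in H1975 and 8.87% in H1299, these few calls are near the array-wide rate. The USP7 call was lost without PBS replicate 2 or 3 or Omomyc replicate 1 or 5 (-0.70 to -0.75, adjusted p 0.0539 to 0.0853).

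In the corepressor list HDAC1, the histone deacetylase that MXD and MNT recruit through SIN3, fell in H1975 (-1.36 ± 0.20, adjusted p = 2.53e-05), the 1 called of 12, and 0 of 12 were called in A549 and H1299 (0 and 1 at an unadjusted p under 0.05). Of the other PRC1.6 subunits, TFDP1, the E2F partner, fell in H1975 (-1.09 ± 0.22, adjusted p = 0.00104) and in H1299 (-0.92 ± 0.21, adjusted p = 0.00396), the 1 called of 10 in each, and 0 of 10 were called in A549 (0 at an unadjusted p under 0.05). With 11.8% of all genes called in H1975 and 8.87% in H1299, single calls in these lists are near the array-wide rate.

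In H1299, the line in which MYC fell, 4.52% of all genes were called lower and the median change was 0.0018. Genes listed here as activated by MYC at E-boxes had 4 of 19 lower, 0 higher and a median of -0.42. They were SHMT2 (-0.89 ± 0.19, adjusted p = 0.00266), of serine and folate metabolism, the spermidine synthase gene SRM (-0.66 ± 0.16, adjusted p = 0.0056), and NOLC1 (-0.74) and CDK4 (-0.68), which were named after their values were seen. The call of SRM was lost with each array centred on its median (-0.62, adjusted p = 0.0982), that of NOLC1 without PBS replicate 1 (-0.64, adjusted p = 0.0526), and that of CDK4 without PBS replicate 2, 3 or 4 or Omomyc replicate 1, 4 or 5 (-0.53 to -0.70, adjusted p 0.06 to 0.147). In H1975, where MYC rose, the median of these E-box genes was -0.0013, with 2 of 19 lower and 1 higher. With each array centred on its median it was 0.11, beside 0.12 for all genes. The transferrin receptor gene TFRC fell (-2.03 ± 0.22, adjusted p = 2.12e-07) and the pyrimidine synthesis gene CAD fell (-1.21 ± 0.37, adjusted p = 0.0273), while RCL1 rose by 0.69 (adjusted p = 0.0472). The listing of RCL1 among MYC targets was not checked, so its rise is not read as that of a MYC target. Calls in H1975 were lost for CAD without PBS replicate 1, 2 or 3 or Omomyc replicate 1, 2 or 5 (-1.06 to -1.18, adjusted p 0.0625 to 0.104), and for RCL1 without any PBS array or Omomyc replicate 1, 3 or 5 (0.55 to 0.74, adjusted p 0.0628 to 0.157). In A549 0 of 19 were called and 4 had an unadjusted p under 0.05, with a median of 0.021.

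Genes described as repressed by MYC had 6 of 11 higher and 0 lower in H1975, with a median of 1.12. MYC itself rose there too, and a link between MYC and these genes was not tested. Over all genes 5.57% were called higher in this line. GADD45A, a growth arrest gene, rose by 2.52 ± 0.22 (adjusted p = 4.02e-09) and NDRG1 by 2.01 ± 0.28 (adjusted p = 7.46e-06). The others that rose were GADD45B and the cyclin-dependent kinase inhibitor genes CDKN1A, CDKN1B and CDKN1C, by 1.12 to 2.12. The call of CDKN1C was lost without PBS replicate 1, 3 or 4 or Omomyc replicate 1 or 2 (0.83 to 1.14, adjusted p 0.0585 to 0.136). In H1299 CDKN1A rose by 1.10 ± 0.29 (adjusted p = 0.0121), whereas GADD45B (-1.54 ± 0.32, adjusted p = 0.00185) and GADD45A (-0.80 ± 0.21, adjusted p = 0.0112) fell, and the median of the repressed genes was -0.056. In A549 1 of 11 was called, TXNIP (-1.43 ± 0.29, adjusted p = 0.00728), whose PBS and Omomyc means of 5.60 and 4.16 are under the brightest background probe set, so its fold is uncertain. That call was lost without Omomyc replicate 2 (-1.23, adjusted p = 0.0805).

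Among factors described as acting on MYC transcription or mRNA, E2F1 fell in H1975 (-1.18 ± 0.31, adjusted p = 0.00998) and in H1299 (-1.25 ± 0.29, adjusted p = 0.00454), with means of 4.40 to 6.16 that are also under the brightest background probe set. SMAD3, a transducer of TGF-beta signals that repress MYC, rose in H1299 by 1.16 ± 0.20 (adjusted p = 0.000225). CTCF (-0.71 ± 0.22, adjusted p = 0.0314) and CNBP (0.63 ± 0.20, adjusted p = 0.0332) were called in H1975. CTCF was lost without PBS replicate 1, 2 or 3 or Omomyc replicate 2, 3 or 5 (-0.58 to -0.71, adjusted p 0.0569 to 0.1), and CNBP without PBS replicate 1, 2 or 4 or Omomyc replicate 1, 3 or 4 (0.55 to 0.63, adjusted p 0.0642 to 0.0887). In A549 0 of 13 were called, and 1 had an unadjusted p under 0.05.

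The genes most like MYC, MAX and MNT over the 26 arrays were ranked by Pearson correlation after the mean of each run was subtracted. The arrays share lines and treatments, so these values are a description. For MYC they were GADD45B (r = 0.962), the uridine phosphorylase gene UPP1 (r = 0.953) and TUFT1 (r = 0.945). These changed by 2.12, 1.43 and 0.69 in H1975 and by -1.54, -1.49 and -1.21 in H1299. For MAX they were the secretogranin gene SCG2 (r = 0.925), the replication licensing gene CDC6 (r = 0.882) and TMX4 (r = 0.871), with changes of 1.75, 0.84 and 0.77 in A549 and values below 0 in H1975 and H1299. For MNT they were the complement gene C2 (r = 0.895), HIVEP1 (r = 0.893) and JMY (r = 0.889).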

How the data were processed

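Per the submitters' processing notes RMA and Partek were used, with no version named, and the deposited values are log2 values, 1 column per array. The sources used here do not say if the arrays were normalized in 1 batch. Of 24351 probe sets, 17709 had 1 gene symbol and 6642 did not. The probe set with the highest mean stood for its gene, which left 17687 genes. The fit was made in limma 3.58.1 (R 4.3.3) with a coefficient for each group over the 26 arrays (lmFit, eBayes, 20 residual degrees of freedom, no block) and was tested on simulated data. Runs are 3 clusters of the arrays' sorted values (average linkage). No arrays of a group were identical.

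The members, lists, runs and alternatives were chosen with earlier results of these data known. Named genes are the 9 members, up to 2 called genes a direction with the smallest p in each list and line, MLX, MLXIP, MLXIPL, the markers and, for MYC, MAX and MNT, the 3 most correlated genes. Others are marked in the text. Pairing was judged from how far same-numbered PBS and Omomyc arrays deviated together (a correlation over 0.1 in every pair). Correlations were 0.11 to 0.2 in 3 pairs of A549 and 0.26 to 0.39 in 5 pairs of H1299. Each such pair lay in 1 run, and the run was not removed before correlating, so pairing and a shared run cannot be told apart. In 4 pairs of H1975 the correlations were -0.2 to 0.33, which did not meet this rule. Replicates 2 and 4 of H1975, whose arrays lay in different runs, were at -0.15 and -0.2. The main fit used no pairing. Alternatives were median centring or quantile normalization of the arrays, a filter at the 30th percentile of mean level, means of probe sets, the compared lines alone, trend and robust settings, array weights, the replicate block, the run as a block, both, each run alone, an adjusted p under 0.01 and each array left out.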

Additional observations from a re-analysis of the deposited data

Results flagged for a closer look

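The responses of MYC, MAX and MXD1 to Omomyc differed between the 3 lines in the moderated F test of limma, with adjusted p of 2.07e-05, 0.000944 and 0.000135. In 45 combinations of member and group with 4 or 5 arrays, an array set apart from the others by its gap over the group's range was found 2 times, and chance gives about 1 in 20. MXD3 in H1975 with Omomyc stood at 7.78 in replicate 4, where the nearest array was at 6.68. MNT in H1975 with Omomyc stood at 9.74 in replicate 3, where the nearest array was at 10.45. Both arrays lay in run 2.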

How the results depend on the processing

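Of the changes of members with Omomyc, 181 of 205 alternative values in H1975, 168 of 178 in A549 and 190 of 214 in H1299 kept their side of the threshold. Called members kept their direction in these alternatives. Members that were not called could change sign, such as MGA in H1975 (-1.14 to 0.86), MXD3 in H1975 (-0.64 to 0.49) and MXI1 in A549 (-0.24 to 0.23). Members called in A549 were 0, and 1 after quantile normalization, with median centring, with trend and robust settings and with run and replicate block together, and 2 with array weights or with the run as a block. In H1975 the 5 called became 3 with run and replicate block together and 1 in run 1, 2 or 3 alone. In H1299 the 4 became 0 in run 1 alone, 1 in run 2 or 3 alone and 2 at an adjusted p under 0.01. For PBS levels, H1975 minus A549 went from 6 to 3 in run 3 alone. H1975 minus H1299 went from 4 to 2 in run 1 and 1 in run 3. A549 minus H1299 went from 4 to 2 in run 1, 1 in run 2 and 2 at an adjusted p under 0.01. MYC in that last comparison was 0.00845 in run 2 alone, the opposite sign. Fits on 1 run take the spread of lone arrays from other groups and have few residual degrees of freedom (3, 4 and 2).

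With the replicate block 4, 0 and 4 members were called in H1975, A549 and H1299. MNT in H1975 was then at 0.85 (adjusted p = 0.0868), and MAX there was at -0.82 (adjusted p = 0.0839) with run and replicate block together. The PBS comparisons allow no such block. Leaving out each array gave 4 to 5 members called in H1975, 0 to 1 in A549, 2 to 4 in H1299, 3 to 4 for the difference between lines, and 4 to 6, 3 to 4 and 3 to 4 for the PBS levels of H1975 minus A549, H1975 minus H1299 and A549 minus H1299.

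Over all genes, the count in H1975 (2095) was 3400 with the run as a block, 1245 with both blocks, 1018, 1047 and 780 in the runs alone and 1194 at the stricter threshold. In A549 (211) it was 352 after quantile normalization, 477 with array weights, 502 with the run as a block, 81 in A549 alone, 50 and 44 in runs 1 and 2, 113 at the stricter threshold, 139 without PBS replicate 4 and 128 without Omomyc replicate 1. In H1299 (1569) it was 2812 with the run as a block, 2622 with both blocks, 81 and 523 in runs 1 and 2 alone and 886 at the stricter threshold. Median centring moved the median change of all genes in H1975 from 0.0038 to 0.12. Of 230 values of the balance, 219 moved by less than the spread between arrays and 11, all in single runs, by more. The causes were not tested. MYCN, MYCL and, mostly, MXD3 are limited by signal over background.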
